A study of Homo sapiens with 80 samples.

Results

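Day 0 of a cardiomyocyte differentiation was examined in WTC11, an established human induced pluripotent stem cell line. The comparison set 4 wells of a differentiation that later gave high cardiomyocyte purity against 4 wells of a differentiation that later gave low purity. These 8 libraries were chosen by their labelled line, experiment, day and purity class, with no measured value used. They are 8 of the 80 libraries of the series and 8 of the 56 of its multi-omic experiment. Per the labels, purity was scored afterwards by flow cytometry for cardiac troponin T, the classes were assigned from it, and RNA was taken from Trizol samples kept at each time.

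Every high purity well came from 1 differentiation begun at passage 52, and every low purity well from 1 differentiation begun at passage 69. No genetic change is labelled in either class. All wells had been seeded as single cells on Matrigel in mTeSR1 medium with Y-27632 and then given mTeSR1 alone. Differentiation is started on day 0 with CHIR99021, a GSK3 inhibitor that turns on WNT signalling, in RPMI1640 with B27 lacking insulin. Libraries are labelled as made from poly(A) RNA with a stranded kit. Purity class, passage and differentiation cannot be told apart here, and p-values measure only the spread between wells of a single differentiation. In bulk RNA, fewer cells of a type and less RNA per cell cannot be told apart either.

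As background, cells sense oxygen through prolyl hydroxylases of the EGLN family, which mark the alpha subunits of hypoxia-inducible factors (HIF) for destruction while oxygen is plentiful. When oxygen is short, HIF1A or EPAS1 pairs with ARNT and binds a short core motif at genes for glucose uptake, glycolysis, lactate export and mitophagy. Human pluripotent stem cells draw heavily on glycolysis, keep themselves with NODAL and FGF signals, and are held in contact with neighbours and matrix through actin and its regulators. Genes of these systems were therefore described list by list, beside the counts over all genes.

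Reads per well, recovered from the deposited values, numbered 11507316 to 18143597 for the high purity class and 6579715 to 11059737 for the low purity class. The high purity wells were all deeper (two-sided exact permutation p = 0.0286, the smallest that 4 wells against 4 can give). RNR2, the large mitochondrial rRNA, took 15.2% to 17.3% of all TPM (a read density scaled to a fixed library sum) in the high class against 22.4% to 22.8% in the low class, and protein-coding genes took 74.1% to 76.2% and 67.6% to 68.3%. TPM were therefore rescaled by TMM factors, which were 1.03 to 1.08 in the high and 0.947 to 0.976 in the low purity wells, and differences are given as high minus low on the scale of log2(rescaled TPM + 1), which understates changes of low genes. RN7SK took 1.61% to 2.09% of all TPM over the 8 wells, and replication-dependent histone genes took 2.27% to 2.83%. How much RNA without poly(A) tails the libraries hold was not tested. The part of depth and of RNR2 in the gene differences was not tested beyond the alternatives named below.

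The labelled identity was checked first. All 10 markers of undifferentiated pluripotent cells were above 1 TPM, with a summed level of 6983 to 7210 TPM in high and 6644 to 7052 TPM in low purity wells. NANOG averaged 102 ± 4.38 TPM in the high and 92.5 ± 1.31 TPM in the low class (SD, n = 4 each), with a log2 difference of 0.02. It was not called, but was called at 0.14 without scaling. POU5F1 stood at no more than 0.804 TPM in any well. Reads of this gene are split over 6 further entries of near-identical sequence, so its level is not usable here. Summed over 6 markers, primitive streak genes reached 2.18 to 2.73 TPM in high and 1.31 to 2.04 TPM in low purity wells, which do not overlap (two-sided exact permutation p = 0.0286). These sums are of TPM before scaling, where all high wells lay above all low wells in 24.1% of genes. MIXL1 was the only one of them above 1 TPM, and after scaling it was not called (log2 difference 0.17). Neuroectoderm markers summed to at most 0.711 TPM over 4 genes and cardiomyocyte markers to at most 13.4 TPM over 6. Stromal markers summed to 21.3 to 25.7 TPM in high and 18.8 to 21.7 TPM in low purity wells over 5 genes, which overlap. Endothelial markers reached at most 9.10 TPM over 4 genes and endoderm markers 2.69 TPM over 5. Amnion and surface epithelium markers reached at most 2.63 TPM over 6. PAX6 reached at most 0.036 TPM, GATA3 at most 0.323 TPM, and SOX17 had no read in any well, which allows up to 3 reads.

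The labels do not say whether wells were taken before or after CHIR99021 was added on day 0. SP5, a direct WNT target named here after its values were seen, was at 0 to 0.384 TPM (high purity wells) and 0 to 0.303 TPM (low purity wells) on day 0, against 403 to 483 and 307 to 334 TPM on day 2. AXIN2, a WNT feedback gene named in the same way, was at 16.4 to 19.6 and 18.3 to 20.5 TPM on day 0 and at 126 to 144 and 127 to 134 TPM on day 2. TBXT, the primitive streak factor, was at 0 to 0.33 and 0 to 0.167 TPM on day 0 and at 688 to 819 and 575 to 598 on day 2. For these 3 genes all 8 day 0 wells stood far below every day 2 well.

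Genes were tested where 3 or more of the wells reached 1 TPM. At a limma adjusted p (Benjamini-Hochberg) under 0.05, 3472 of 17335 such genes were called, which is 20% of the genes tested. Higher levels in high purity were called for 1683 genes (9.71%) and in low purity for 1789 (10.3%). Past 2-fold there were 45 genes with more in high (0.26%) and 213 with more in low purity (1.23%). In TPM before this scaling, all high wells lay above all low wells in 24.1% of genes, and all low wells above all high wells in 6.66%. These overlap shares therefore carry the shift between classes that scaling takes out of the calls. Scaling sets the balance of calls. With TMM left out, the all-gene median became 0.112 and 79.0% of calls lay on the high purity side, against 48.5% with it. Centring on GC content and transcript length, an alternative chosen after seeing the data, gave 86 genes higher in high and 110 higher in low purity past 2-fold.

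Protein-coding and non-coding genes divided differently between the classes. Of 12887 protein-coding genes kept, 1602 (12.4%) were called higher in high and 1240 (9.62%) higher in low purity. Counts in the lists of protein-coding genes below are to be read beside these shares and the 9.71% and 10.3% of all genes. Of 2130 lncRNA genes, 41 (1.92%) were called higher in high and 307 (14.4%) higher in low purity, and their median difference was -0.22 beside 0.00 over all genes. Of 20 mitochondrial tRNA genes, 14 were called higher in low purity and 0 higher in high, with a median of -1.18, and RNR2 moved the same way. Of 32 transcripts annotated inside introns (symbols ending in IT and a number), 11 were called, all higher in low purity. Low purity wells were also the shallower ones: of the 213 genes past 2-fold in that direction, 61 had at most 10 reads in every well. The part of depth and of the intronic and mitochondrial RNA in this division was not tested.

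**Figure D1:**
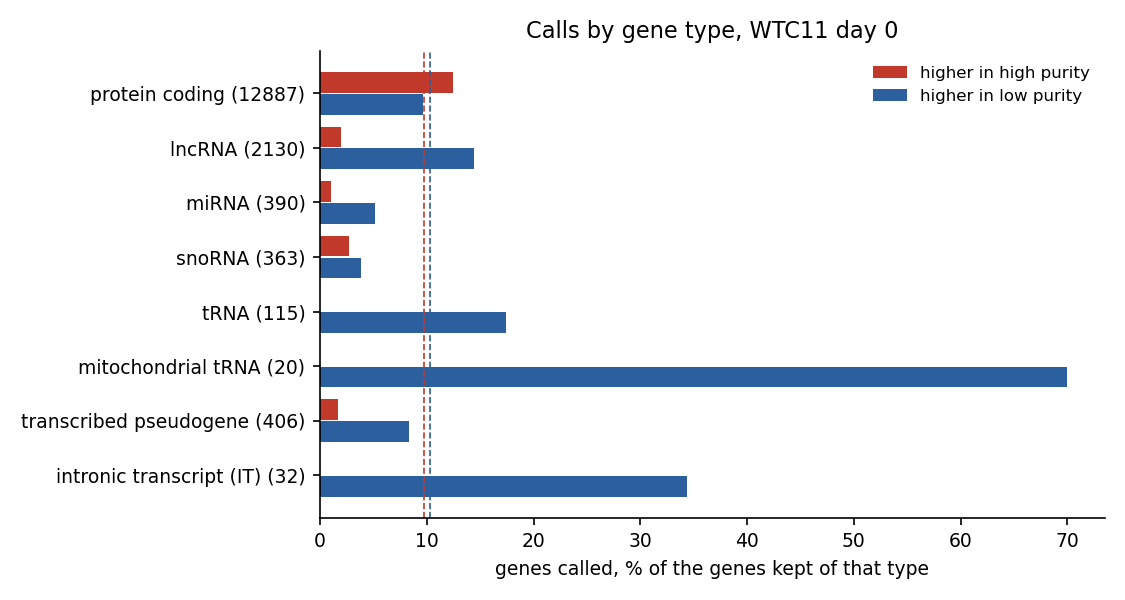
Share of the genes kept of each type (number in brackets) called higher in high purity (red) or in low purity (blue) wells, in percent. Dashed lines give the share over all genes, 9.71% and 10.3%. Protein-coding genes lie close to these lines, while lncRNA and tRNA genes were called mostly in the low purity direction.

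Oxygen-response genes had the highest median difference towards high purity of the 43 gene lists, 1 of which had no gene in the table. Of 36 HIF target genes kept of 40 listed, 26 were called higher in high and 0 higher in low purity, against 9.71% and 10.3% of all genes. Their median difference was 0.69, beside 0.00 over all genes. In TPM before scaling, every high purity well was above every low purity well in 31 of 36, against 24.1% of all genes. The direction of this list was known from earlier results of these data. Leaving out any single well gave 26 calls each time, and the other alternatives gave 26 to 30.

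BNIP3, a mitophagy receptor of the outer mitochondrial membrane (chr10:131967684-131981923 of GRCh38.p14), was at 278, 391, 386 and 325 TPM in the high purity wells and at 55.6, 52.3, 59.7 and 66.4 TPM in the low purity wells. The lowest high purity well was well above the highest low purity well. The means were 345 ± 54.1 and 58.5 ± 6.08 TPM (SD, n = 4 each), a ratio of 5.91, and the log2 difference was 2.41 with a standard error of 0.11 (limma adjusted p = 4.48e-05). DDIT4 (chr10:72273924-72276036), an inhibitor of the growth kinase mTORC1, was at 53, 68.2, 65.2 and 57.3 TPM against 7.97, 9.69, 11.5 and 10.8 TPM. Its wells were as far apart as those of BNIP3, with a ratio of means of 6.1 and a log2 difference of 2.38 ± 0.12 (SE; limma adjusted p = 5.49e-05). Both genes had at least 39 reads in every well.

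EGLN1 (chr1:231363756-231422287), the oxygen-sensing hydroxylase that is itself a HIF target, was at 21.6, 22.6, 21.9 and 22.3 TPM (high purity wells) and 7.79, 6.89, 7.08 and 7.17 TPM (low purity wells). The spread within each class was small, and the log2 difference was 1.37 (limma adjusted p = 1.88e-05). BHLHE40, a transcriptional repressor that links oxygen and the circadian clock, was at 11.5, 14.7, 13.1 and 12.4 TPM against 3.3, 3.28, 2.42 and 2.57 TPM. PFKFB4, which makes the activator of phosphofructokinase, was at 9.67 ± 1.32 against 2.87 ± 0.417 TPM, and EFNA3, an ephrin ligand, at 8.94 ± 1.74 against 2.98 ± 0.906 TPM. VEGFA, the main angiogenic growth factor, rose less, from 29 ± 1.42 TPM in low to 44 ± 2.92 TPM in high purity wells (log2 difference 0.46). CA9, a carbonic anhydrase widely used as a hypoxia marker, had at most 7 reads in a well and did not pass the filter. It was at 0.327 to 0.671 TPM in high and 0 to 0.766 TPM in low purity wells, which overlap.

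The genes of the factors themselves were not called higher in high purity. HIF1A was at 212, 208, 213 and 198 TPM (high purity wells) and 221, 215, 206 and 207 TPM (low purity wells), which overlap. After scaling it was called slightly higher in low purity (log2 difference -0.16, limma adjusted p = 0.00791). EPAS1 was at 0.842 and 1.01 TPM on average and was not called. Of 10 HIF subunits and regulators kept, 0 were called towards high purity and 2 towards low purity, HIF1A and the coactivator EP300 (log2 difference -0.12). HIF1A was not called without scaling or with all 56 libraries. Without scaling EP300 changed sign to 0.01, and the list had 1 gene called higher in high and 0 higher in low purity. EP300 also lost its call in 6 of the 8 fits that left out 1 well, with an adjusted p of up to 0.0710 (limma).

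The HIF core motif was read in the promoter sequences of RefSeq (GRCh38.p14), over the 250 bases before the start of transcription. Matches to ACGTG or GCGTG on either strand were counted, and their reverse forms are CACGT and CACGC. A promoter was held for 29 of the 36 HIF targets, and 24 of the 29 (82.8%) had a match. The share was 18 of 21 (85.7%) for the targets called higher in high purity and 6 of 8 (75.0%) for those not called. Over all protein-coding genes kept it was 57.0% of 10605, and over all 27305 RefSeq promoters it was 43.1%. A match describes the letters only. The promoters of the 3 genes below are shown 5′ to 3′ in the direction of the gene, in lower case with each match in capitals, because they run from many matches to a single one. The windows are chr10:131981924-131982173 on the minus strand for BNIP3, chr10:72273674-72273923 on the plus strand for DDIT4 and chr1:231422288-231422537 on the minus strand for EGLN1.
BNIP3: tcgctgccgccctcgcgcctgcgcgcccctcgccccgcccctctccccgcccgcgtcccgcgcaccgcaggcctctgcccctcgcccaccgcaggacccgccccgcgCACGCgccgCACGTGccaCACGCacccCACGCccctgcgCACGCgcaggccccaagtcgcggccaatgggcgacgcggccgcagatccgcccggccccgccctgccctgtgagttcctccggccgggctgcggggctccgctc
DDIT4: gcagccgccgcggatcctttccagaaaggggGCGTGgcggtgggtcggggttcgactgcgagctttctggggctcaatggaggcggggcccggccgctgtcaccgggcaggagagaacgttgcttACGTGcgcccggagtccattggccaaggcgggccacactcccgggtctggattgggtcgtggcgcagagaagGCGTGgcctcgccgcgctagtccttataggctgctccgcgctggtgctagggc
EGLN1: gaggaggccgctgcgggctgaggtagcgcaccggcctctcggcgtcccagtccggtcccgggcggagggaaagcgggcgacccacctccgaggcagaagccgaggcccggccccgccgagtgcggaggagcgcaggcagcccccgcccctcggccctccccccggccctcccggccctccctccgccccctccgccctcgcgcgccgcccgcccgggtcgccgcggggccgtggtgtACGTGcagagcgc
The BNIP3 window holds 6 matches that partly overlap in a run of C-rich sequence, the DDIT4 window 3 and the EGLN1 window 1, which lies 8 bases from the start. The window of SLC2A1, a gene with a log2 difference close to that of EGLN1, holds none of these letters.

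RNA of most genes of glucose uptake and glycolysis moved in the same direction. Of 26 genes of glycolysis and lactate handling, all kept, 21 were called towards high purity and 0 towards low purity, with a median difference of 0.28. The shares over all genes were 9.71% and 10.3%. Some genes, SLC2A1 and the lactate exporter SLC16A3 among them, are textbook HIF targets, and SLC2A1 stands in both lists. SLC2A1 (chr1:42925353-42958868), the main glucose transporter, was at 256, 276, 286 and 257 TPM (high purity wells) and 102, 91.3, 103 and 97.5 TPM (low purity wells). The classes stood 2.73-fold apart with little spread (log2 difference 1.32 ± 0.044, SE, limma adjusted p = 1.19e-05). SLC16A3 was at 3.28, 4.58, 5.59 and 4.42 TPM against 0.201, 0.478, 0.819 and 0.925 TPM, and no wells overlapped. PDK1, which keeps pyruvate out of mitochondria, was at 12, 14.5, 16.6 and 14.7 TPM against 5.46, 5.8, 4.64 and 4.53 TPM (log2 difference 1.22). Further down the pathway the differences were smaller: ENO2 at 0.76, PGK1 at 0.72 and LDHA, which makes lactate, at 0.59 on the log2 scale. LDHA was at 572 ± 40.4 and 346 ± 17.5 TPM (SD, n = 4 each) and its wells did not overlap. Several of these genes have processed pseudogenes, whose share of the reads is not known from these files.

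**Figure D2:**
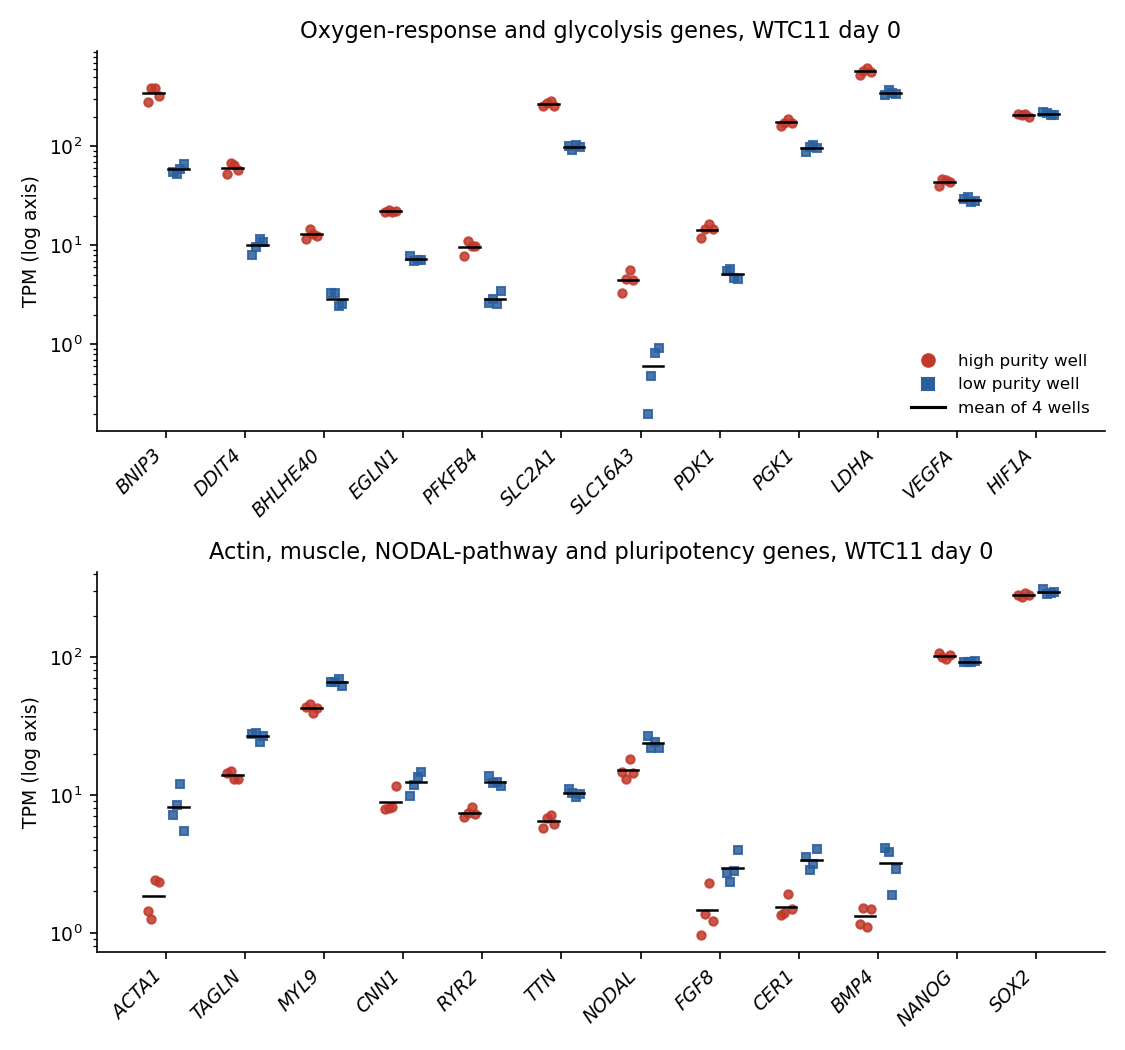
TPM of 24 genes in each well on a log axis, with high purity wells in red and low purity wells in blue; black bars are means of 4 wells. In the upper panel every high purity well lies above every low purity well for all genes but HIF1A, and in the lower panel the low purity wells lie higher for most genes, while CNN1 and SOX2 overlap and NANOG is slightly higher in high purity.

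Nuclear genes of the respiratory chain did not move as a group. Of 42 kept, 5 were called higher in high and 5 higher in low purity, near the background of 9.71% and 10.3%, and the median was 0.07. Without scaling 19 were called higher in high and 4 in low purity. COX5B, a subunit of complex IV, was higher in high purity at 0.34 (log2), while COX7C, another complex IV subunit, was lower at -0.75, as were ATP5PF of the ATP synthase at -0.73, UQCRB of complex III at -0.70 and NDUFB10 of complex I at -0.58. The complex I gene NDUFS6, among the protein-coding genes with the largest difference towards low purity, was at 12.9, 10.6, 17.9 and 13.8 TPM (high purity wells) and 39.9, 20.6, 36.7 and 19 TPM (low purity wells). These genes kept their calls after centring on GC and length. The 13 mitochondrially encoded mRNAs were not analysed here. BNIP3L, a mitophagy receptor related to BNIP3, was at 90.1 ± 7.35 TPM (high purity wells) and 41.9 ± 5.22 TPM (low purity wells) (log2 difference 0.97), and 3 of 14 mitophagy and autophagy genes were called in that direction (7 without scaling).

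RNA of most lipid synthesis genes was also higher in the high purity wells, by smaller amounts. Of 24 genes of cholesterol synthesis and its control, all kept, 18 were called higher in high and 0 higher in low purity (median 0.26). All genes together gave 9.71% and 10.3%. INSIG1, which holds back the sterol factor SREBF2, differed by 0.66 (log2), from 57.9 ± 1.26 to 101 ± 7.17 TPM. FDPS, a farnesyl diphosphate synthase, differed by 0.52 and STARD4, a cholesterol carrier, by 0.46. The count fell to 12 when all 56 libraries shared the estimate of spread. Of 13 genes of fatty acid synthesis, 7 were called higher in high and 0 in low purity (median 0.17). FADS1, a desaturase, differed by 0.27, ACLY, which makes cytosolic acetyl-CoA, by 0.22, and FASN, the fatty acid synthase, by 0.20.

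Targets of ATF4, the factor of the amino acid response, were called higher in high purity in 12 of 24 kept and in low purity in 1 (median 0.26). Over all genes 9.71% and 10.3% were called. STC2 was at 57.3 ± 5.33 against 32.1 ± 1.3 TPM and belongs to the HIF list as well. TRIB3, a pseudokinase induced by ATF4, differed by 0.63, PCK2, a mitochondrial enzyme that makes phosphoenolpyruvate, by 0.47, and CTH, which makes cysteine, by 0.43. The unfolded protein response list, a different stress pathway, had 3 of 16 called higher in high and 1 in low purity (median -0.03). Heat shock genes had 0 of 12 kept called higher in high and 3 in low purity, with DNAJA1, a cochaperone, at -0.33. HSPA1A and HSPA1B, also listed, did not pass the filter and were not tested. Without scaling the heat shock list had 3 and 1 called and a median of 0.04, and the unfolded protein response list 5 and 1 and a median of 0.10.

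**Figure D3:**
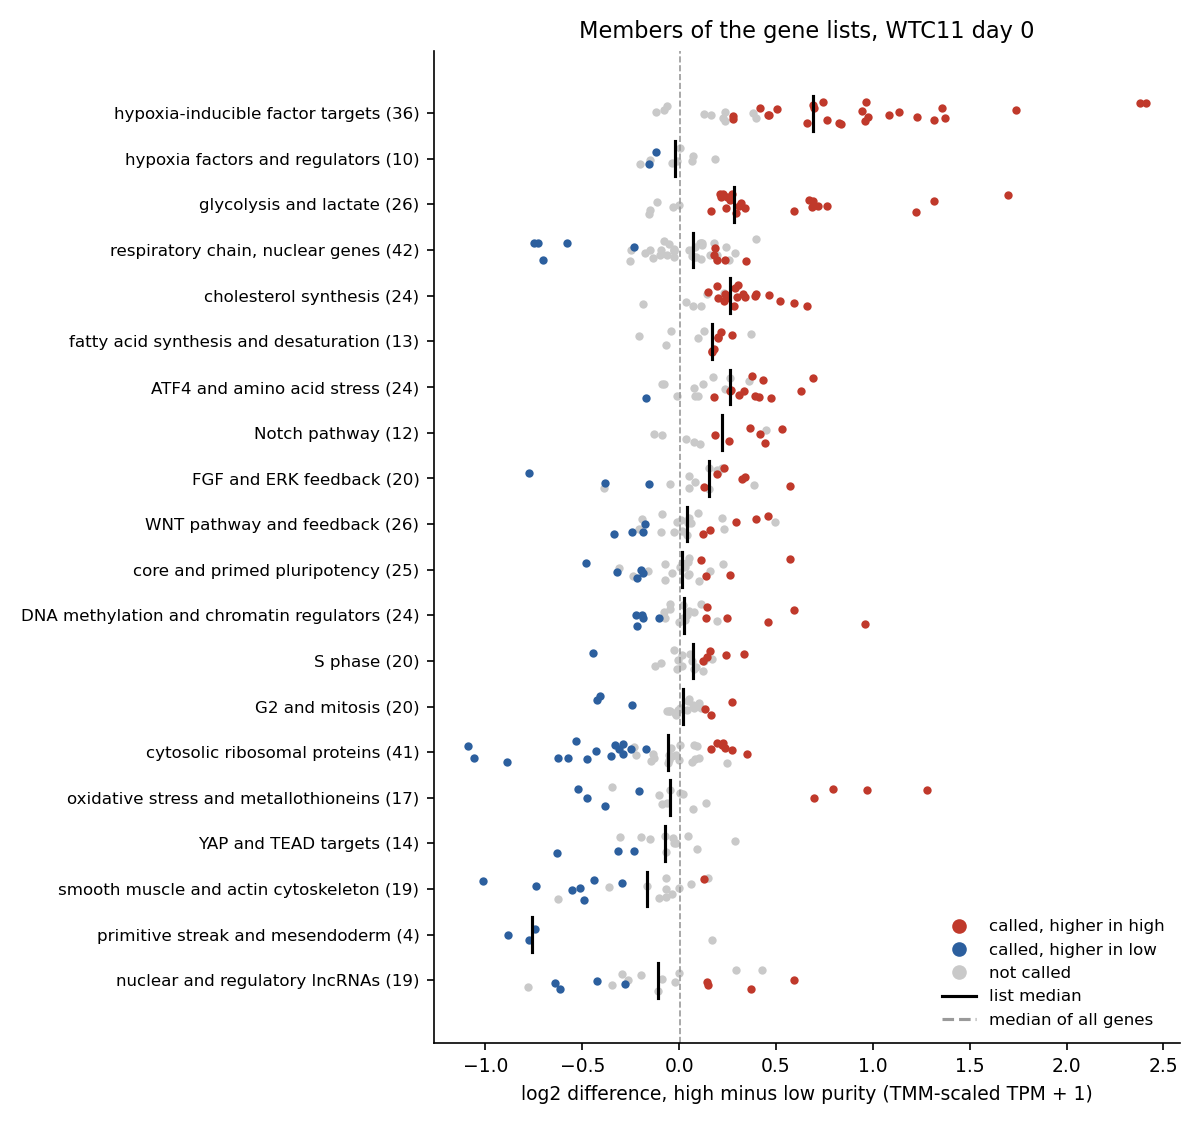
Log2 difference, high minus low purity, of each kept member of 20 gene lists (number kept in brackets). Red and blue points are genes called higher in high and in low purity, grey points were not called, black bars are list medians and the dashed line is the median of all genes. The HIF targets reach furthest right with a median of 0.69, and the actin list leans left with a median of -0.17.

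Genes of the contractile actin cytoskeleton leaned towards the low purity wells. Of 19 kept, 7 were called higher in low and 1 higher in high purity, with a median of -0.17, against 10.3% and 9.71% of all genes. TAGLN (chr11:117199294-117207465), an actin-binding protein of smooth muscle, was at 14.4, 15, 13.2 and 13.1 TPM (high purity wells) and 27.6, 28.4, 24.3 and 26.6 TPM (low purity wells). No wells overlapped, and the log2 difference was -1.01 ± 0.0694 (SE, limma adjusted p = 1.56e-04). MYL9, a myosin light chain, was at 42.6 ± 2.74 against 65.7 ± 3.21 TPM (log2 difference -0.74), and TPM2, a tropomyosin, differed by -0.51. CNN1, calponin, overlapped between classes and lost its call in 6 of 8 fits without 1 well, with an adjusted p of up to 0.0920 (limma). ACTA2, smooth muscle actin, stood at 1.36 and 1.55 TPM and was not called, while FLNA, filamin A, was called slightly higher in high purity (0.13). The count of genes higher in low purity was 6 to 9 with a single well left out and 13 after centring on GC and length. Without scaling 3 were called higher in high and 5 higher in low purity, and FLNA was not called with all 56 libraries or after centring.

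ACTA1, skeletal muscle actin, had the largest difference of any protein-coding gene named towards low purity. It was at 1.45, 1.26, 2.41 and 2.34 TPM (high purity wells) and 7.12, 8.41, 11.9 and 5.47 TPM (low purity wells), on at most 18 and 40 reads, with a log2 difference of -1.76 (limma adjusted p = 0.00181). Large genes of the heart muscle cell went the same way at low levels: RYR2, the calcium release channel, was at 6.88, 7.38, 8.25 and 7.25 TPM against 13.7, 12.2, 12.4 and 11.7 TPM, and TTN, titin, differed by -0.72. TNNI3, cardiac troponin I, went the other way, from 26.9 ± 3.77 TPM in low to 47.5 ± 3.6 TPM in high purity wells (log2 difference 0.68). TNNT2, whose protein product defines the classes on day 16, was at 4.37, 5.62, 6.49 and 6.64 TPM (high purity wells) and 6.69, 10.1, 8.05 and 6.29 TPM (low purity wells). Those wells overlap and TNNT2 was not called (limma adjusted p = 0.0776). The list of YAP and TEAD targets, which follow cell spreading and tension, also holds the regulators YAP1, TEAD1 and WWTR1 themselves. Of its 14 genes kept, 3 were called higher in low purity and 0 in high (median -0.07). Among all genes the shares were 10.3% and 9.71%. The called genes were the targets CCN1 at -0.63 and CCN2 at -0.31, both secreted matrix proteins, and the coactivator WWTR1 at -0.23. WWTR1 lost its call in 7 of the 8 fits without 1 well, with an adjusted p of up to 0.113 (limma), and CCN2 was not called after centring on GC and length. Without scaling the list had 2 called in each direction and a median of 0.05.

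Other protein-coding genes with the largest differences towards low purity were at low levels. GCNT4, a glycosyltransferase, was at 2.77 ± 0.485 against 8.8 ± 1.32 TPM, KIAA0825 at 3.0 ± 0.401 against 8.85 ± 0.538 TPM and ANXA3, an annexin, at 9.15 ± 1.47 against 21.4 ± 0.684 TPM (SD, n = 4 each, high before low). NPY, a neuropeptide, differed by -1.25 on at most 15 reads a well, and CPLX2, a regulator of vesicle fusion, by -1.14. CDRT4 and FILIP1L differed by -1.22 and -1.12. On the other side stood CIART, a repressor of the circadian clock, at 6.52, 6.88, 10.5 and 8.39 TPM (high purity wells) and 1.61, 2.13, 2.63 and 2.32 TPM (low purity wells), and EDNRB, an endothelin receptor, at 26.2, 32.8, 31.6 and 29.4 against 8.41, 10.6, 10.2 and 10.7 TPM. Neither is in a list here, and in both every high purity well was above every low purity well.

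NODAL signalling keeps human pluripotent cells primed for mesendoderm, and NODAL and its targets are switched on further when differentiation begins. NODAL was at 14.6, 13, 18.3 and 14.5 TPM (high purity wells) and 26.8, 22, 24.3 and 21.8 TPM (low purity wells), which do not overlap (log2 difference -0.74, limma adjusted p = 0.00157). CER1, a secreted inhibitor of NODAL and BMP, was at 1.35, 1.39, 1.9 and 1.49 against 3.53, 2.87, 3.15 and 4.07 TPM, and FGF8 at 0.974, 1.38, 2.32 and 1.22 against 2.7, 2.34, 2.81 and 3.96 TPM. These 3 were called higher in low purity of only 4 kept members of the 16 primitive streak and mesendoderm genes listed; the remaining one, MIXL1, differed by 0.17 and was not called. FGF8 lost its call in 4 of the 8 fits without 1 well (high purity wells 1, 2 and 4, low purity well 4), with an adjusted p of up to 0.0581 (limma). BMP4, a ligand that specifies mesoderm, was likewise higher in low purity, at 1.15, 1.52, 1.1 and 1.5 against 4.12, 3.87, 1.9 and 2.93 TPM (log2 difference -0.91).

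Of 21 NODAL and TGF-beta genes 1 was called in each direction, NODAL and the receptor ACVR1B (0.35). ACVR1B was not called with the replicate block or after centring on GC and length (limma adjusted p = 0.0701 and 0.0578). Of 15 BMP genes, BMP4 and ID1 (-0.38) were called higher in low purity and ID2 (0.54) higher in high, the ID genes encoding inhibitors of helix-loop-helix factors. Among 26 WNT genes, 5 were called higher in high and 4 higher in low purity, against 9.71% and 10.3% of all genes. FZD2 (0.46) and FZD7 (0.16), both receptors, SFRP1 (0.40), a secreted inhibitor, and CTNNB1 (0.29), beta-catenin itself, were on the high purity side. TCF7L2 (-0.33), a transcription partner of beta-catenin, and LGR4 (-0.24), an R-spondin receptor, were on the low purity side. Without scaling 9 WNT genes were called higher in high and 1 higher in low purity, LGR4 and ID1 were not called, and the BMP list had 4 and 1. FZD7 was not called after centring on GC and length. CTNNB1 was at 379.8 ± 3.78 against 284 ± 11.4 TPM (SD, n = 4 each).

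Of 20 FGF and ERK feedback genes, 6 were called higher in high and 3 higher in low purity (median 0.15). The shares over all genes were 9.71% and 10.3%. DUSP6, a phosphatase induced by ERK, was at 115, 114, 117 and 103 TPM (high purity wells) and 64.3, 65.9, 73.4 and 71.6 TPM (low purity wells) (log2 difference 0.57). The receptors FGFR4 (0.34) and FGFR1 (0.23) and the factor ETV5 (0.32) went the same way, while the ligand FGF2 went the other way (-0.38). Without scaling the count was 11 and 2, and with all 56 libraries 3 and 3, where FGFR4 was not called. Of 12 Notch genes, 6 were called higher in high and 0 in low purity (median 0.22), with the target HES1 at 45.8 ± 1.68 against 32.4 ± 2.98 TPM. This count rested on single wells: it was 2 without high purity well 1, 2 without low purity well 4 and 3 or 4 without each of the others, and 3 after centring on GC and length.

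Pluripotency genes were split. Of 25 core and primed pluripotency genes, all kept, 4 were called higher in high and 5 higher in low purity, with a median of 0.02. Over all genes 9.71% and 10.3% were called. LIN28A, an RNA-binding protein that blocks let-7, was at 2047, 1965, 2082 and 2003 TPM (high purity wells) and 1555, 1502, 1569 and 1568 TPM (low purity wells) (log2 difference 0.26). L1TD1, an RNA-binding protein of pluripotent cells, was higher in low purity at 1220.5 ± 51.9 against 1562 ± 111 TPM (-0.48), as was PRDM14 (-0.32). SOX2 was called at -0.20 although its wells overlap in TPM (283, 274, 289 and 280.3 against 312, 285, 290.0 and 298), and it lost its call without scaling or with all 56 libraries, as PRDM14 did with all 56. TDGF1, the NODAL coreceptor, differed by 0.01 and was not called. Without scaling the count was 12 and 2.

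Among 24 regulators of DNA methylation and chromatin, 6 were called higher in high and 5 higher in low purity (median 0.03). For this list and the cell cycle lists below, the shares over all genes were 9.71% and 10.3%. The high purity side was led by histone demethylases: KDM3A at 63 ± 6.39 against 29.2 ± 1.32 TPM (0.96) and KDM4B (0.46), both also in the HIF list, KDM6B (0.59) and KDM5B (0.25). KDM6B lost its call without high purity well 2 or low purity well 1, with an adjusted p of up to 0.0578 (limma). The DNA methyltransferases went slightly the other way, with DNMT3A at -0.22, DNMT1 at -0.19 and DNMT3B at -0.19. Without scaling DNMT1 and DNMT3B were not called, and the list had 12 genes higher in high and 1 higher in low purity. Of 20 S phase genes, 5 were called higher in high and 1 in low purity, and of 20 G2 and mitosis genes 3 in each direction. Without scaling these counts were 15 and 0 for S phase and 10 and 2 for G2 and mitosis, and with all 56 libraries no S phase gene, PCNA included, was called, nor were DNMT3A and DNMT3B. CDK1, the mitotic kinase, was at 0.28 and PCNA, the replication clamp, at 0.24, against MKI67 at -0.41 and the mitotic motor CENPE at -0.43.

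Of 27 genes of extracellular matrix and integrins, 7 were called higher in high and 1 higher in low purity (median 0.04), and of 19 genes of junctions and epithelial to mesenchymal transition 4 and 1 (median 0.07), against 9.71% and 10.3% of all genes. Without scaling these counts were 13 and 1, and 6 and 0. VIM, vimentin, was at 169.5 ± 4.87 TPM (high purity wells) and 98 ± 6.75 TPM (low purity wells) (0.66). LOXL2, a collagen cross-linking enzyme, was at 0.58, the basement membrane proteoglycan HSPG2 at 0.39 and the matrix protein THBS1 at -0.42. Of the endoderm list only 2 of 11 genes were kept: KIT, a receptor, was called at 0.57 and FOXA2 was not called (-0.13). Of the neuroectoderm list 5 of 15 genes were kept. There POU3F1 (0.50) and MAP2 (0.44) were called higher in high and NES, nestin, higher in low purity (-0.52). POU3F1 was not called with all 56 libraries. Of 23 p53 targets, 3 were called higher in high and 1 in low purity (6 and 1 without scaling), with the death receptor TNFRSF10B at 0.51, CCNG1 at 0.34 and the kinase PLK2 at -0.68.

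Ribosomal protein genes spread in both directions. Of 41 kept, 7 were called higher in high and 15 higher in low purity (median -0.06), against 9.71% and 10.3% of all genes. Without scaling the median turned to 0.07, with 12 and 13 called. RPLP1, a stalk protein, was at 479, 572, 445 and 594 TPM (high purity wells) and 1002, 1042, 1079.8 and 934 TPM (low purity wells) (-1.09), and RPS27 (-1.06) and RPL11 (-0.63) went the same way. RPL15 (0.35), RPL4 (0.24) and RPL5 (0.23) went the other way. Metallothioneins, which bind zinc and copper, were also unequal: MT1G was at 32.7, 25.7, 19.7 and 23.9 against 8.74, 6.42, 11 and 10.1 TPM (1.28), with MT1H (0.97), MT1E (0.80) and MT1X (0.69) on the same side and MT1M (-0.47) on the other. MT1M was not called with the replicate block, nor by edgeR or DESeq2 on recovered reads, MT1E not with the block or DESeq2, and MT1X not with all 56 libraries. MT1F (-0.35) and MT2A (-0.05) were not called in the main fit. FTH1, the ferritin heavy chain, was higher in low purity (-0.52). The list of oxidative stress and metallothionein genes had 4 of 17 called in each direction (median -0.05). Ribosomal protein and metallothionein genes have near-identical copies, so the division of reads among them is uncertain.

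Of the lncRNA genes past 2-fold, 8 were higher in high and 96 higher in low purity, and 22 of the 96 had at most 10 reads in every well. By size, the 8 named towards high purity were led by NALT1, with at most 18 reads in a high purity and 3 in a low purity well. NALT1 lost its call in 4 of the 8 fits without 1 well (adjusted p up to 0.0657, limma). The one of the 8 with the most reads was LOC105377953 (chr6:113168055-113197540), at 49.4, 46.6, 62.5 and 56.2 TPM (high purity wells) and 24.9, 24.6, 18.8 and 24.2 TPM (low purity wells), with up to 260 and 82 reads (1.06, limma adjusted p = 5.94e-04). GBAT2 was at 5.17 ± 1.14 against 1.93 ± 0.769 TPM. With all 56 libraries neither LOC105377953 nor GBAT2 was called (limma adjusted p = 0.141 and 0.19), and GBAT2 was not called with the replicate block (limma adjusted p = 0.0647). Towards low purity stood PCCA-AS1, antisense to PCCA, at 1.74 ± 0.719 TPM (high purity wells) and 8.21 ± 2.27 TPM (low purity wells) (-1.85). LOC101927727 (-1.76), LOC107985036 (-1.63) and LOC105374934 (-1.68) followed, each with at most 34 reads in a well, and LOC101927727 was not called with the replicate block. LOC105372588 had 0 reads in all 4 high purity wells and at most 3 in a low purity well, so no fold is given. The kit keeps strand, but whether the counting used it is not given in the sources used here, so antisense genes may hold reads of their partners.

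Better measured lncRNAs came from the gene lists. MEG8 and MEG3, maternally expressed imprinted lncRNAs that neighbour each other on chromosome 14, were both higher in high purity. MEG8 was at 50.6, 50.4, 53.3 and 47.1 TPM against 24.3, 26.7, 24.7 and 27.2 TPM (0.82) and MEG3 at 28.9, 30.1, 28.6 and 28.9 against 20.9, 15.4, 15.4 and 18.5 TPM (0.59). MIR381HG of the same cluster was named by size (1.41) but had at most 12 reads in a well and lost its call in 4 of the 8 fits without 1 well (adjusted p up to 0.0622, limma). KCNQ1OT1, an imprinted antisense lncRNA of another cluster, went the other way, at 3.58, 3.87, 4.07 and 3.9 against 6.21, 5.93, 5.84 and 6.14 TPM (-0.64). Of 16 lncRNAs tied to pluripotency, 2 were called higher in high and 3 in low purity, with FIRRE at -0.39 and ESRG at -0.19. Over all lncRNA genes 1.92% and 14.4% were called. ESRG was not called without scaling or with all 56 libraries. Of 21 host genes of small RNAs, 3 were called higher in high and 2 in low purity (7 and 1 without scaling), with SNHG1 at 0.31 and SNHG29 at 0.31 against ZFAS1 at -0.43. MIAT was higher in high purity (0.37). MALAT1, a nuclear lncRNA, was called higher in low purity (-0.42). It lost the call in 4 of the 8 fits without 1 well (adjusted p up to 0.0558, limma), and also without scaling. Of 3 lncRNAs linked to hypoxia, 0 were called higher in high purity and MALAT1 was the only one called higher in low.

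Because the classes differ by passage, the medians of all genes on each chromosome were compared. The 22 autosomes and X lay within -0.06 to 0.06 of the median of all genes, and between -0.07 and 0.05 with genes of at least 5 TPM. The 20q11.21 segment is often gained in cultured pluripotent cells. Of its 12 genes kept, 2 were called higher in high and 1 in low purity (4 and 0 without scaling), against 9.71% and 10.3% of all genes. XKR7 (0.65) and PDRG1 (0.47) were higher in high and ID1 was higher in low purity. BCL2L1, the survival gene of that segment and named after its values were seen, was at 13, 11.8, 11.6 and 11.6 TPM (high purity wells) and 10.6, 13.6, 13.6 and 11.9 TPM (low purity wells) and was not called. PDRG1 lost its call in 4 of the 8 fits without 1 well (adjusted p up to 0.0704, limma). No chromosome stood out as a whole at this resolution, and copy number was not measured.

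Over the 8 wells, the genes most like BNIP3 by Pearson correlation of log2(TPM + 1), among 11068 compared, were PTDSS1, IGFBP2, AP2B1, UCHL1 and DDIT4, with r of 0.996 to 0.997. IGFBP2, a binding protein of insulin-like growth factors, was at 242, 260.1, 263 and 258 TPM (high purity wells) and 138, 141, 150.2 and 146 TPM (low purity wells) (0.70). PTDSS1, which makes phosphatidylserine, AP2B1, a clathrin adaptor, and UCHL1, a ubiquitin hydrolase, differed by 0.14, 0.26 and 0.22, and PTDSS1 and UCHL1 were not called with all 56 libraries. With 2 classes this likeness follows mostly the class difference, and the points share libraries and depth.

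Day 0 was also sampled in the RNA-only experiment, where H9, an embryonic stem cell line, IMR90-4, another induced pluripotent line, and WTC11 were each represented by a pair of total RNA libraries, 1 of each purity class. With line as a block, edgeR called 0 of 24810 genes (0% called), against 362 at an unadjusted p under 0.05, and DESeq2 called 1. On simulated counts of this design the edgeR test recovered 16% of 2-fold and 93% of 4-fold changes, so a 2-fold change would mostly be missed there. Differences of single lines are given on the scale of log2(TPM + 1) without a test.

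The lines went different ways for the HIF targets. In IMR90-4, 32 of 36 were higher in the high purity library (median 0.57, beside 0.04 over all genes). In H9 it was 23 of 36 (median 0.11, beside -0.12). In the WTC11 pair only 3 of 36 were higher in high purity (median -0.37, beside 0.03), the opposite of the 8 WTC11 wells. BNIP3 was at 227 TPM in the high and 66.8 TPM in the low purity library of IMR90-4, at 521 and 429 TPM in H9, and at 21.5 and 65.6 TPM in WTC11. SLC16A3 differed by 1.79 in IMR90-4 and by -2.00 in WTC11. Glycolysis genes had medians of 0.15, 0.29 and -0.18 in H9, IMR90-4 and WTC11.

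Passage differed from pair to pair. The high purity differentiation was the earlier passage in the 8 WTC11 wells (52 against 69) and in IMR90-4 (55 against 75), and the later one in H9 (58 against 55) and in the WTC11 pair (81 against 69). The HIF targets were higher on the earlier passage in 3 of these 4 pairs, and H9 was the exception. In both WTC11 comparisons the low purity class was at passage 69, so the 4 pairs may not be independent. The part of passage was not tested. Cholesterol genes kept the direction of the wells in WTC11 (24 of 24 higher in high purity, median 0.29) but not in H9 (1 of 24, median -0.40) or IMR90-4 (10 of 24, median -0.03). Of all 17335 genes, 10055 were higher in high purity in WTC11, 5259 in H9 and 10181 in IMR90-4. The all-gene medians were 0.03, -0.12 and 0.04. TAGLN differed by 0.45, -0.01 and -0.09 in H9, IMR90-4 and WTC11, and NODAL by -0.07, 0.16 and -0.10.

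**Figure D4:**
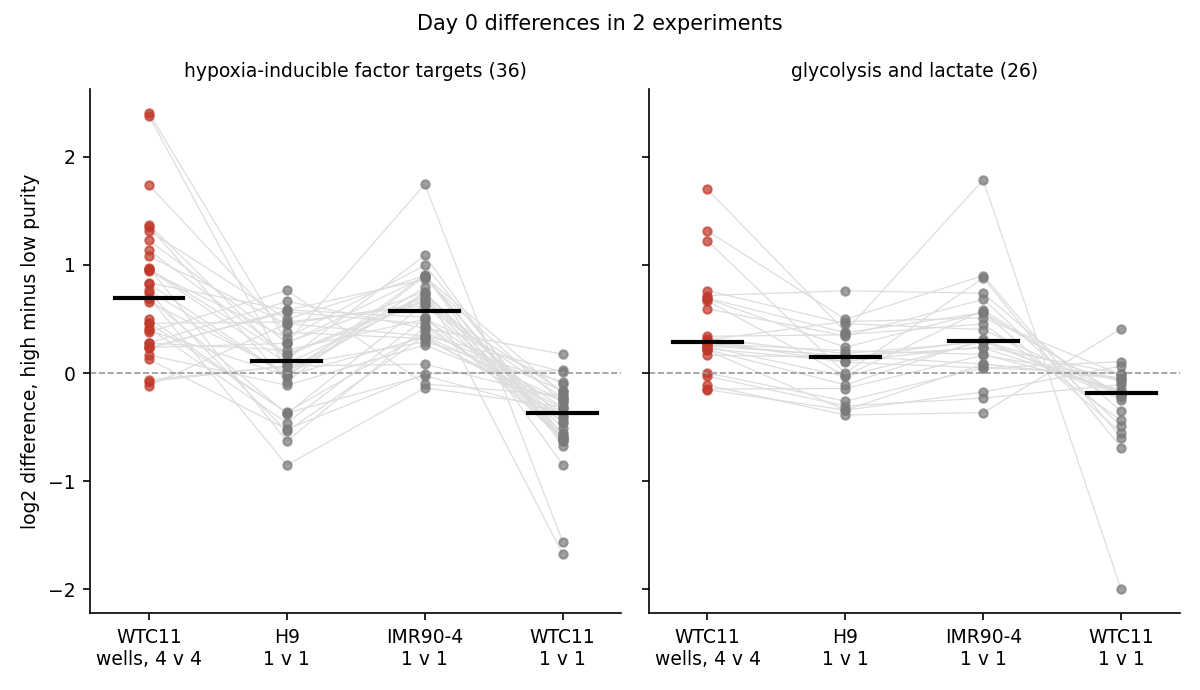
Log2 difference on day 0, high minus low purity, of the 36 HIF targets (left) and the 26 glycolysis genes (right) in the WTC11 wells (red) and in the H9, IMR90-4 and WTC11 library pairs of the RNA-only experiment (grey). Thin lines join a gene and black bars are medians, which run 0.69, 0.11, 0.57 and -0.37 on the left.

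The day 0 differences were set beside later days of the same 2 WTC11 differentiations. In a fit of all 56 libraries the median difference of the HIF targets was 0.71 at the start, was 1.44 on day 2 and was lowest, at 0.10, on day 4. From day 6 to day 16 it lay between 0.32 and 0.97, where day 10 has 1 high purity library. BNIP3 averaged 3199 TPM (high purity wells) and 653 TPM (low purity wells) on day 2 and 2004 and 613 TPM on day 16, so the order of the classes held. SLC2A1 did not keep its order: on day 6 it averaged 57.5 TPM (high purity wells) and 185 TPM (low purity wells). Cholesterol genes turned from 0.28 on day 0 to -0.33 on day 2. TAGLN widened, to 28.2 TPM (high purity wells) and 328 TPM (low purity wells) on day 16. NODAL crossed over, with 278 TPM (high purity wells) and 109 TPM (low purity wells) on day 2, and RYR2 ended at 282 and 86.6 TPM on day 16. These are descriptions, with no test between days.

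**Figure D5:**
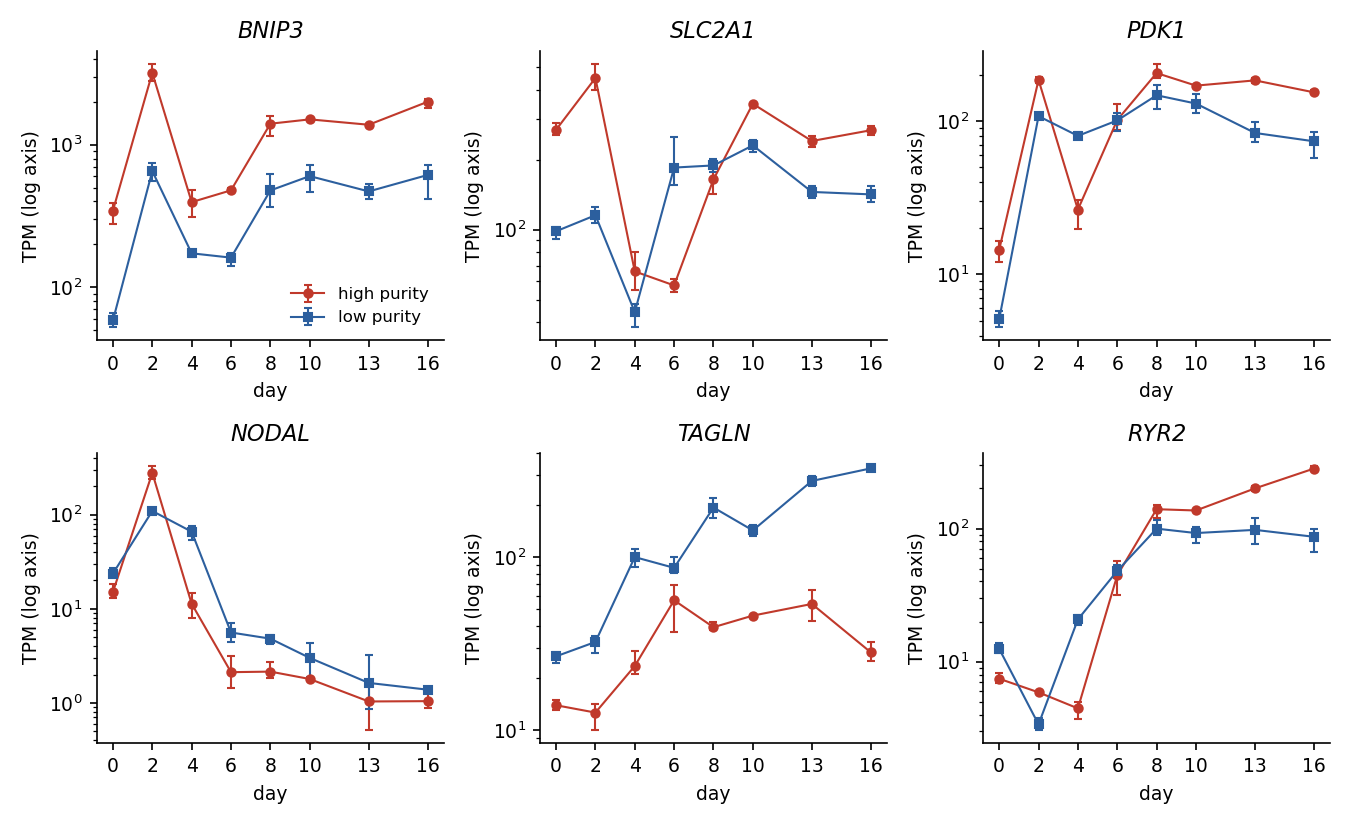
TPM (log axis) of 6 genes by day in the high (red) and low (blue) purity WTC11 differentiations; points are means and bars run from the lowest to the highest of the 1 to 4 wells. BNIP3 is higher in high purity on every day, TAGLN higher in low purity on every day, and the lines of SLC2A1, PDK1, NODAL and RYR2 cross.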

How the data were processed

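RNA from 4 high and 4 low purity WTC11 wells on day 0 was compared. Reads were aligned with STAR 2.5.3a to hg38 and assigned to genes with featureCounts 2.0.3, per the submitters' processing notes; the annotation release, strand setting and filters are not given in the sources used here. The authors deposited TPM, which were tested here, and a count table. In the multi-omic experiment 0 of 56 deposited count columns fitted the TPM of their own name. A differently named count column fitted 50 TPM columns, so those counts were not tested. The 4 low purity day 0 TPM columns fitted count columns named High_D6_3, High_D6_4, High_D8_1 and High_D8_2. The 4 high purity day 0 TPM columns fitted no count column. Which names are right was not settled. The TPM names were used, and the purity classes and day rest on that choice. The TPM of 37194 genes gave whole reads in 100% of values (tolerance 0.02 read).

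TPM were rescaled by TMM (edgeR 4.0.16), genes reaching 1 TPM in 3 or more wells were kept, and log2(TPM + 1) was tested with limma 3.58.1 (trend, two-sided, Benjamini-Hochberg). A gene was called at an adjusted p under 0.05. For the RNA-only libraries the deposited counts were tested with edgeR's quasi-likelihood test. Tests were checked on simulated data: limma recovered 94% of 2-fold changes in the wells, and 9.35% of its calls there were false, above the 5% aimed at. In both simulations the 200 changed genes were drawn only from better expressed genes, with 1 common spread for all genes. These shares therefore do not cover genes near the filter or genes with a wider spread. Genes were named by size (10 protein-coding and 8 lncRNA genes in each direction, up to 4 of each list in each direction), with 20 genes always reported and the 5 most like BNIP3. The members, lists and tests were chosen with earlier results of these data known. Gene names, types and promoters come from RefSeq (39739 of 43388 genes matched). Alternatives were another pseudocount, filter, scaling, pooled spread, replicate block, leaving out each well, and counts recovered from TPM tested with edgeR and DESeq2 1.42.0.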

Additional observations from a re-analysis of the deposited data

Results flagged for a closer look

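Of 308 groups of 4 wells examined, 13 had a well far from the other wells of its class, and chance gives about 5%. In high purity, CNN1 stood at 11.6 TPM in well 4, TCF7L2 at 63.9 TPM in well 1, RPS27 at 79.3 TPM in well 4 and BCL2L1 at 13.0 TPM in well 1. In low purity, HES1 stood at 36.9 TPM, RPL4 at 3390.0 TPM and LOXL2 at 30.1 TPM in well 4, DNMT1 at 184.0 TPM in well 1 and LOC105377953 at 18.8 TPM in well 3. Genes with few or no reads made up the others in low purity: CA9 at 0 TPM in well 3, GATA3 at 0.133 TPM in well 3, and SP5 at 0.303 and PAX6 at 0.0331 TPM in well 4.

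Among the genes named here, 5 were flagged because the WTC11 wells and all 3 lines of the RNA-only experiment had opposite signs. The difference was not tested. These 5 are not a count over all genes, so they do not show that opposite signs were rare. Shared signs in the 3 lines were common: of 17335 genes, 1846 were higher and 1828 lower in high purity in all 3. In the wells 8719 of the 17335 had a positive difference. The log2 differences in the wells were 0.26 for LIN28A, 0.37 for HES1, 0.46 for FZD2, 0.16 for FZD7 and 0.24 for PCNA. The list medians in the RNA-only WTC11 pair were -0.37 for the HIF targets and -0.18 for glycolysis, opposite to those of the WTC11 wells, and these differences were not tested either.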

How the results depend on the processing

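The direction of the HIF target, glycolysis and cholesterol medians held under every alternative run. Without TMM scaling 3855 genes were called higher in high and 1026 higher in low purity, with 74 past 2-fold in the high purity direction, and EP300 and HSPA4 changed sign to 0.0071 and 0.0191. Requiring an absolute log2 difference of at least 1 left 258 of the 3472 calls. Past 2-fold, the counts for higher in high and higher in low purity were 79 and 352 with a pseudocount of 0.1, 24 and 123 with at least 5 TPM, 83 and 429 with edgeR and 83 and 411 with DESeq2 on recovered reads. Of the alternatives chosen after seeing the data, centring on GC content and length gave 86 and 110, and a minimum of 80 reads gave 28 in the high purity direction. Leaving out each well in turn gave 2678 to 2924 calls, 1254 to 1412 higher in high and 1370 to 1529 higher in low purity, and 38 to 59 and 176 to 212 past 2-fold. With the replicate block 2229 genes were called, 1054 higher in high and 1175 higher in low purity; same-numbered wells did not deviate together (r from -0.00885 to 0.0179), so the numbers do not pair the wells. In the RNA-only libraries DESeq2 called 1 gene and edgeR 0. The causes of these changes were not tested. Low read numbers limit the largest differences: 71 of the 258 genes past 2-fold had at most 10 reads in every well.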
